A study of Mus musculus with 28 samples.

Results

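The effect of losing Ddx25 was compared between 2 successive stages of male germ cells, round spermatids and spermatocytes, across all genes measured. For each gene the quantity is a stage difference, the knockout (KO) minus wild-type (WT) log2 signal in round spermatids minus the same difference in spermatocytes. A positive stage difference means that the KO effect was higher, or less negative, in round spermatids. It used 14 of the 28 arrays of the series, chosen by their titles, and tested 9097 of 18193 genes. The groups were WT spermatocytes (4 arrays), KO spermatocytes (4), WT round spermatids (3) and KO round spermatids (3), all from adult male C57BL/6 mice. KO mice were null for GRTH (GRTH-/-), the gonadotropin-regulated testicular RNA helicase that Ddx25 encodes, and WT mice carried the gene; no other agent or allele is named. Both cell types were obtained by centrifugal elutriation, which sorts cells by size, so each sample is an enriched fraction. The labels do not say that arrays came from separate animals, and the p-values therefore cover the spread of these arrays, which could be technical only.

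Spermatocytes carry out meiosis, pairing and recombining chromosomes with the help of the synaptonemal complex. Their daughters, the round spermatids, are haploid, transcribe a large set of sperm genes under factors such as CREM, and store many of the transcripts in ribonucleoprotein particles and in the chromatoid body, a cytoplasmic RNA granule. GRTH/DDX25 is a DEAD-box RNA helicase of the chromatoid body and of polysomes, and mice without it are sterile because spermatids stop developing before they elongate.

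The deposited signals of these 14 arrays shared 1 scale, a trimmed mean of 500, but their distributions differed between groups. The upper quartile of the signal lay between 278 and 290.1 on the WT round spermatid arrays, between 320.3 and 335 on the KO round spermatid arrays and between 349.9 and 379.7 on the spermatocyte arrays. The 3' over 5' ratio of actin, a sign of RNA quality, was 1.41 to 1.82 over all 14 arrays. The same ratio of Gapdh was 1.16 to 1.27 on WT round spermatid arrays, which did not overlap the 0.983 to 1.09 on KO round spermatid and 0.89 to 1.07 on spermatocyte arrays, and its part in the results was not tested. The fractions carried markers of their stage: the summed signal of 20 elongating spermatid genes was 165091 to 200017 in WT spermatocytes and 473511 to 636459 in WT round spermatids, and that of 47 meiosis genes 165264 to 184258 and 134065 to 142440.0. Spermatocyte markers separated the fractions poorly by their sum (154931 to 190010.0 against 142903 to 179328). Their mean log2 signal did separate them, at 12.13 to 12.26 in WT spermatocytes and 11.21 to 11.35 in WT round spermatids. In such bulk samples, fewer cells of a type and less RNA per cell cannot be told apart.

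The KO effect differed between the stages for a large part of the genes, and it was called for more genes in round spermatids than in spermatocytes, although round spermatids had fewer arrays. Of 9097 genes, 4186 (46%) passed the test of the stage difference (limma, adjusted p under 0.05), 2941 (32.3%) with a higher and 1245 (13.7%) with a lower effect in round spermatids. The stage difference reached at least 1 on the log2 scale in 240 genes (2.64%), which is a 2-fold ratio of the fold changes, 143 with a higher effect (1.57%) and 97 with a lower one (1.07%). The KO effect itself was called for 6109 genes (67.2%) in round spermatids, 4081 higher (44.9%) and 2028 lower (22.3%). In spermatocytes it was called for 3037 (33.4%), 1452 higher (16%) and 1585 lower (17.4%). Effects of at least 1 (log2) were called for 608 genes (6.68%) in round spermatids, 284 higher (3.12%) and 324 lower (3.56%), and for 107 (1.18%) in spermatocytes, 21 higher (0.231%) and 86 lower (0.945%).

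The balance of higher and lower calls rested on the scaling of the arrays. Of the called genes 70.3% were higher, against 59.6% after quantile normalization (2467 higher, 1674 lower) and 34.9% with each array centred on its median (1306 higher, 2437 lower), so the majority turned. The median stage difference over all genes was 0.14, 0.06 after quantile normalization and -0.08 with centred arrays. The median KO effect in round spermatids turned likewise, from 0.17 to 0.07 and -0.05. The balance of higher and lower KO effects there thus also rested on the scaling. All 3 scalings called 1290 genes higher (14.2%) and 1010 lower (11.1%), a tally made after the data were seen. Averaging closely agreeing arrays (arrays 1 and 2 together, and spermatocyte arrays 3 and 4) left 1737 calls, 1219 higher and 518 lower, of which 1734 were among the 4186.

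**Figure D1:**
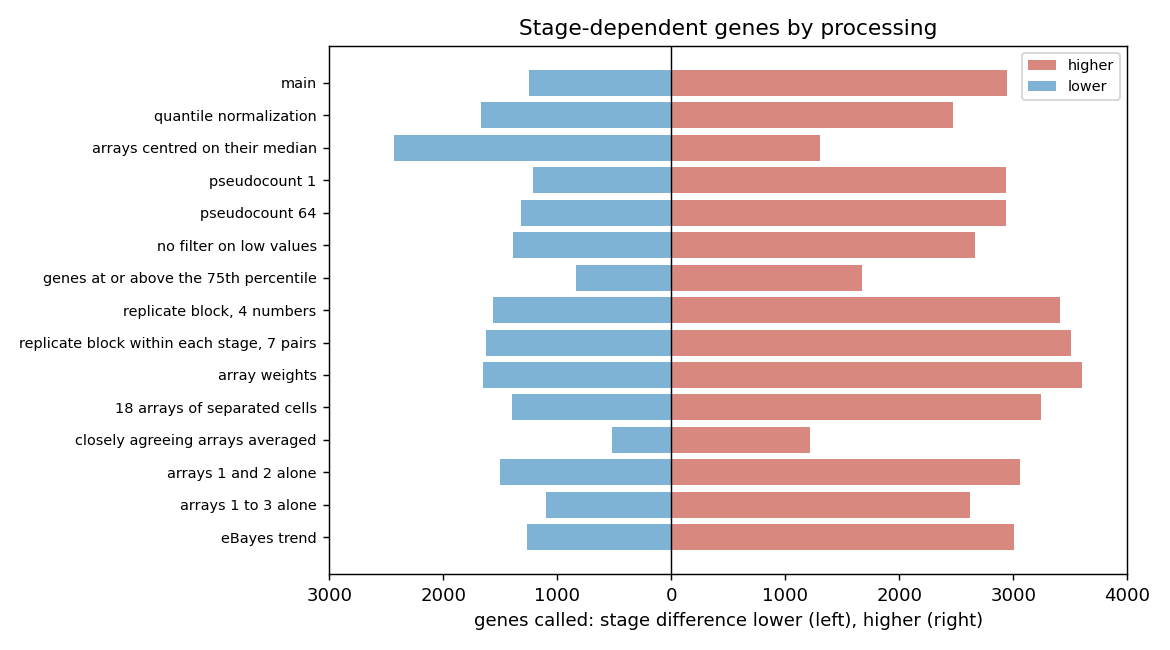
Genes called for a stage difference (bars to the right higher, to the left lower; x axis in genes) under each processing. The scaling used throughout has 2941 higher and 1245 lower, arrays centred on their medians 1306 and 2437, and averaging closely agreeing arrays 1219 and 518.

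Across the 9097 genes the KO effects at the 2 stages leaned the same way. Their SD over genes was 0.547 in round spermatids and 0.305 in spermatocytes, with medians of 0.17 and 0.03. Pearson's r between both effects was 0.650 and Spearman's rho 0.561 over 9097 genes, which are not independent replicates; the effects come from different arrays of the same RNA preparation method and share their probe sets. Of 2405 genes called at both stages, 2189 changed in the same direction and 216 in opposite directions.

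**Figure D2:**
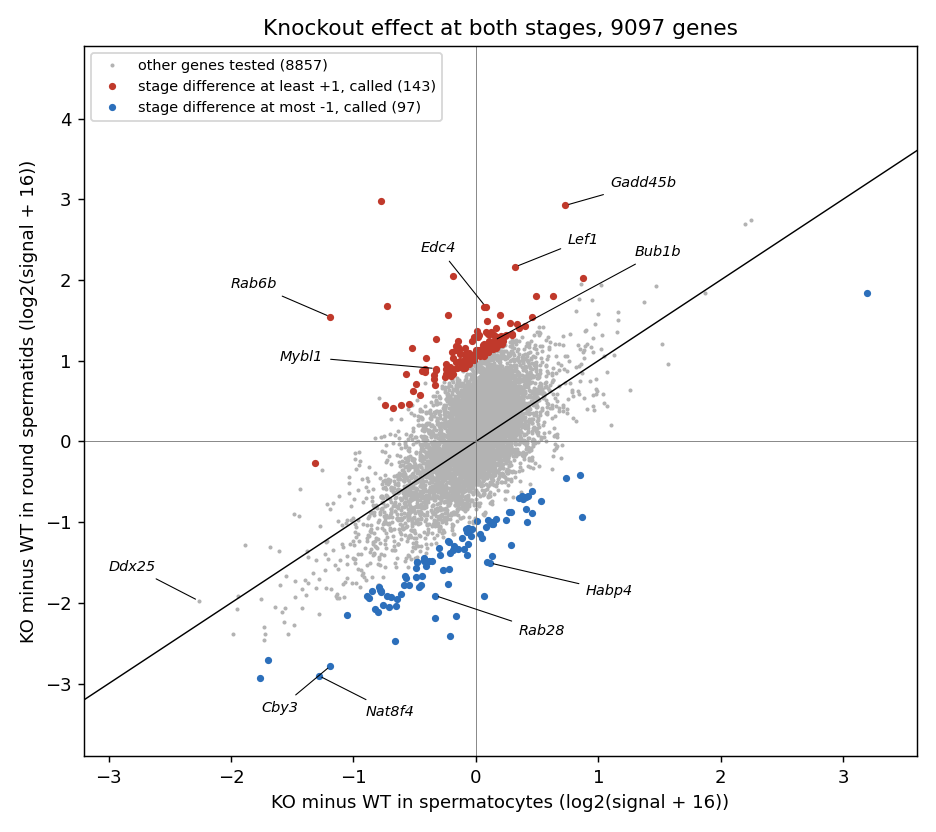
KO minus WT log2 difference in spermatocytes (x axis) and in round spermatids (y axis), 1 point per gene tested; the line marks equal effects. Red points (143) have a called stage difference of at least 1 and blue points (97) of at most -1. Most lie near the vertical axis, where the effect in spermatocytes is small, while Ddx25 lies close to the line of equal effects.

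Most stage-dependent genes had a KO effect called in round spermatids and none called in spermatocytes. Of the 4186, 2570 (61.4%) were of this kind, 2001 with a higher and 569 with a lower effect. These and the following splits by direction are given for the scaling used throughout alone, and the balance over all genes turned with the scaling. Another 976 (23.3%) changed at both stages in the same direction and by more in round spermatids, 525 rising and 451 falling. Fewer genes went the other way: 296 (7.07%) had an effect called in spermatocytes alone, and 58 (1.39%) changed in the same direction with the smaller effect in round spermatids. A further 216 (5.16%) changed in opposite directions, 154 of them rising in KO round spermatids and falling in KO spermatocytes. The remaining 70 passed at neither stage by itself. Among the 143 higher genes of at least 1, 109 had an effect called in round spermatids alone, and among the 97 lower ones 40 did and 45 fell at both stages.

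Ddx25, the deleted gene, was lower in every KO array than in every WT array at both stages. It stayed bright in KO, above the upper quartile of the signal, which was at most 379.7 on any array. Its signal was 16792, 15363, 14474 and 12998 in WT and 3000.4, 2989.8, 3278 and 3048 in KO spermatocytes. Round spermatids gave 18439, 16166 and 15473 in WT and 4596, 4241 and 3865 in KO, so the genotypes did not overlap at either stage. The log2 KO effects were -2.26 ± 0.08 and -1.97 ± 0.09, and their difference of 0.29 ± 0.13 did not pass (adjusted p = 0.0741). With the replicate number as a block it did (adjusted p = 0.0381), and after quantile normalization it was 0.80 (adjusted p = 5.08e-06). With centred arrays it was 0.068 (adjusted p = 0.751), and with averaged arrays 0.28 (adjusted p = 0.244). The labels do not say whether the probe set lies within the deletion.

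The genes with the highest stage differences included regulators of signalling, the cell cycle and RNA. Lef1, a transcription factor that acts with beta-catenin in Wnt signalling, had signals of 289, 253 and 268 in WT and 1250.2, 1239.8 and 1302 in KO round spermatids. In spermatocytes it had 2018, 2015, 2432 and 2441 in WT and 2647, 2671, 2909 and 2874 in KO. The genotypes were apart at both stages, by far more in round spermatids. The stage difference was 1.84 ± 0.11 (adjusted p = 2.12e-07), and the change from spermatocytes to round spermatids was -2.97 in WT and -1.12 in KO. The other probe set gave 1.03 (adjusted p = 0.00124).

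Edc4, a scaffold of the mRNA decapping complex, gave 866, 890.2 and 830.2 in WT and 2918, 2916 and 2513 in KO round spermatids. Its spermatocyte signals of 5140.2, 4784, 5021 and 4858 in WT and 5601, 5139, 5041 and 5160.4 in KO overlapped. This gave a stage difference of 1.59 ± 0.09 (adjusted p = 9.37e-08). Zfp956, a zinc finger gene, behaved alike, with 746, 769 and 899 in WT and 2302, 2254 and 2314 in KO round spermatids and a stage difference of 1.40 ± 0.09 (adjusted p = 2.58e-07). In spermatocytes its KO effect was 0.09 ± 0.06 and did not pass. Kpnb1, the importin subunit that carries cargo into the nucleus, had 1316, 1236 and 1579 in WT and 3952, 2169.7 and 4239 in KO round spermatids, with a stage difference of 1.59 ± 0.35 (adjusted p = 0.00235). All 3 other probe sets of Kpnb1 were higher too, at 0.75, 1.22 and 0.74 (adjusted p = 0.000692, 0.00257 and 0.00395).

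Gadd45b, a stress-induced regulator of growth arrest, was raised at both stages and more in round spermatids. WT round spermatids gave 68.9, 60.4 and 114 and KO round spermatids 712, 723 and 670.5. In spermatocytes the values were 105, 94.5, 114 and 114 in WT and 218, 157, 187 and 193 in KO, again without overlap. The stage difference was 2.19 ± 0.21 (adjusted p = 4.87e-06), and its dimmer other probe sets read 0.49 and 0.30 (adjusted p = 0.218 and 0.251). Ccne1, the cyclin of entry into S phase, had 443, 495 and 178 in WT and 1086, 933 and 1118 in KO round spermatids, and a stage difference of 1.80 ± 0.41 (adjusted p = 0.0029). Another probe set of Ccne1 read 0.43 (adjusted p = 0.0264). Med11, a Mediator subunit, lay between 28.7 and 34.6 in WT and between 53.8 and 127 in KO round spermatids. It lay between 465 and 537 in WT and between 309.7 and 348 in KO spermatocytes, so it was higher in KO at the later and lower at the earlier stage. Its stage difference was 1.68 ± 0.24 (adjusted p = 9.38e-05).

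The largest values of all came from less even arrays. Nrip2, a nuclear receptor-interacting gene, had 345, 369 and 132 in WT and 2996, 3619.5 and 906 in KO round spermatids, with a stage difference of 3.75 ± 0.75 (adjusted p = 0.0013). Its other probe sets read -0.49 and 0.10 and did not pass (adjusted p = 0.637 and 0.882). The genotypes stayed apart in round spermatids, but array 3 was lowest in each group. Rab6b, a Golgi GTPase of the Rab family, gave 501, 347 and 245 in WT and 1218, 809.7 and 1175 in KO round spermatids, against 306, 246, 616 and 274 in WT and 177, 110.2, 132 and 144 in KO spermatocytes. It rose at the later stage and fell at the earlier one, with a stage difference of 2.73 ± 0.41 (adjusted p = 0.000139). Its other probe sets were dim and did not pass (adjusted p = 0.351, 0.245 and 0.139).

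Pik3cd, the delta catalytic subunit of phosphoinositide 3-kinase, had 3500.4, 3177 and 1091 in WT and 8232, 7959.5 and 6161 in KO round spermatids, and its stage difference was 2.40 ± 0.49 (adjusted p = 0.00146). In KO spermatocytes arrays 1 and 2 (1258 and 1192) lay apart from arrays 3 and 4 (677 and 599). Of its 5 other probe sets 1 passed, at 1.35 (adjusted p = 0.000645). The remaining genes among the 15 highest had stage differences from 1.39 to 2.23. They were Rrp9, a nucleolar RNA-processing protein (2.23 ± 0.63), Gm13889 (1.60 ± 0.46), Ccdc171 (1.44 ± 0.12), Sec14l3, a lipid-binding protein (1.41 ± 0.49), and Tecpr2, an autophagy gene (1.39 ± 0.27). With closely agreeing arrays averaged Rrp9 (adjusted p = 0.173), Gm13889 (0.0742) and Sec14l3 (0.0948) no longer passed, and Sec14l3 also did not with centred arrays (0.0691), with Leydig arrays added to the fit (0.0522), without a filter (0.0731) or without single arrays (adjusted p up to 0.0726). Other probe sets of Gm13889 (-0.67, adjusted p = 0.446), Ccdc171 (0.49, 0.32) and Sec14l3 (1.14, 0.0547, and 0.28, 0.564) did not pass. The other 14 were called in the same direction under all 3 scalings.

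The genes with the lowest stage differences were of mixed function, and several were brighter in WT round spermatids than in WT spermatocytes. Habp4, an RNA- and hyaluronan-binding protein, had 7043, 6632 and 7982 in WT and 2546, 2477 and 2552 in KO round spermatids. Its spermatocyte signals were 650.4, 665, 696 and 724 in WT and 729, 759, 723 and 752 in KO, where the genotypes overlapped. For Habp4 the stage difference was -1.62 ± 0.09 (adjusted p = 9.12e-08), and the change from spermatocytes to round spermatids was 3.37 in WT and 1.75 in KO. Both other, dimmer probe sets of Habp4 read above 0 and did not pass (0.11 and 0.39, adjusted p = 0.811 and 0.227).

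Nat9, an N-acetyltransferase-like gene with 1 probe set, gave 1766, 1882 and 1765 in WT and 634, 649 and 707 in KO round spermatids. In spermatocytes it gave 1083, 1050.4, 1152 and 1135 in WT and 1166, 1177, 1249 and 1257 in KO, where the groups did not overlap but the effect did not pass. The effects at the stages differed by -1.56 ± 0.08 (adjusted p = 7.65e-08), and the sign of the change between stages turned, from 0.70 in WT to -0.86 in KO. Gm39874 turned likewise, with 2100.3, 2205 and 2909.8 in WT and 483, 685 and 715 in KO round spermatids, against 1171 to 1272 and 1198 to 1351 in spermatocytes. Between stages its effects differed by -1.98 ± 0.18 (adjusted p = 3.51e-06). Ube2r2, a ubiquitin-conjugating enzyme of SCF ligases, had 1384, 1459 and 1093 in WT and 549.9, 538 and 489 in KO round spermatids and a stage difference of -1.57 ± 0.25 (adjusted p = 0.000243). Another probe set of Ube2r2 read -0.35 (adjusted p = 0.54).

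Efcab1, a calcium-binding EF-hand protein of motile cilia, fell at both stages and more in round spermatids. Its signal lay between 148 and 213 in WT and between 96.8 and 121 in KO spermatocytes, and between 1376 and 1695 in WT and between 237 and 283 in KO round spermatids, with no overlap. The stage difference was -1.80 ± 0.16 (adjusted p = 3.6e-06). Of its other probe sets, 1 read -1.29 (adjusted p = 0.000459) and a dim one 0.01 (0.99). Cby3, a chibby family member, also fell at both stages. It lay between 2758 and 2849 in WT and between 367 and 410.2 in KO round spermatids, and between 186 and 227 in WT and between 61.9 and 96.6 in KO spermatocytes. Its stage difference was -1.59 ± 0.15 (adjusted p = 5.65e-06), with -0.66 by another probe set (adjusted p = 0.0933). Nat8f4, an N-acetyltransferase family gene, showed the same form, with KO effects of -2.90 ± 0.13 in round spermatids and -1.29 ± 0.11 in spermatocytes and a stage difference of -1.62 ± 0.17 (adjusted p = 1.03e-05). Its other probe sets read -0.28 and -0.70 (adjusted p = 0.476 and 0.055).

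For several other genes among the 15 lowest the gene's other probe sets read a weaker stage difference or one above 0. Rab28, a Rab-like GTPase, had 4784, 4794 and 4240.4 in WT and 1164, 1214 and 1262 in KO round spermatids. The effects at the stages differed by -1.58 ± 0.08 (adjusted p = 7.83e-08), but the other probe set gave -0.13 (adjusted p = 0.599). Slc5a9, a sodium-coupled sugar transporter, had 1661, 1644 and 1262 in WT and 267, 245 and 305 in KO round spermatids. Between stages its effects differed by -2.20 ± 0.26 (adjusted p = 2.47e-05), while its 3 dim other probe sets read above 0 (adjusted p = 0.69, 0.26 and 0.638). Hipk2, a nuclear kinase, had a stage difference of -1.58 ± 0.14 (adjusted p = 2.73e-06), and none of its 7 other probe sets passed. Plekha3, a Golgi phosphoinositide-binding protein, had -1.85 ± 0.13, with -0.51 (adjusted p = 0.0439) and 0.41 (0.66) by its others. Dlgap4, a scaffold protein, had -1.53 ± 0.14 and 0.35 by a dim probe set (0.75). Whether the probe sets of a gene read different transcripts was not tested.

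The last genes among the lowest 15 were Vmn1r44, a vomeronasal receptor gene (-2.003 ± 0.45), Krtap12-1, a keratin-associated protein gene (-1.80 ± 0.44), and Klk1b21, a kallikrein (-1.42 ± 0.47). Vmn1r44 had 1886, 2152 and 2142 in WT and 429, 521 and 396 in KO round spermatids. Klk1b21 overlapped between genotypes at both stages, and its call was lost with averaged arrays (adjusted p = 0.13), without a filter (0.0644), and without WT round spermatid array 1 (0.072) or 2 (0.0568) or KO round spermatid array 2 (0.0573) or 3 (0.07). All 15 were called lower under all 3 scalings.

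**Figure D3:**
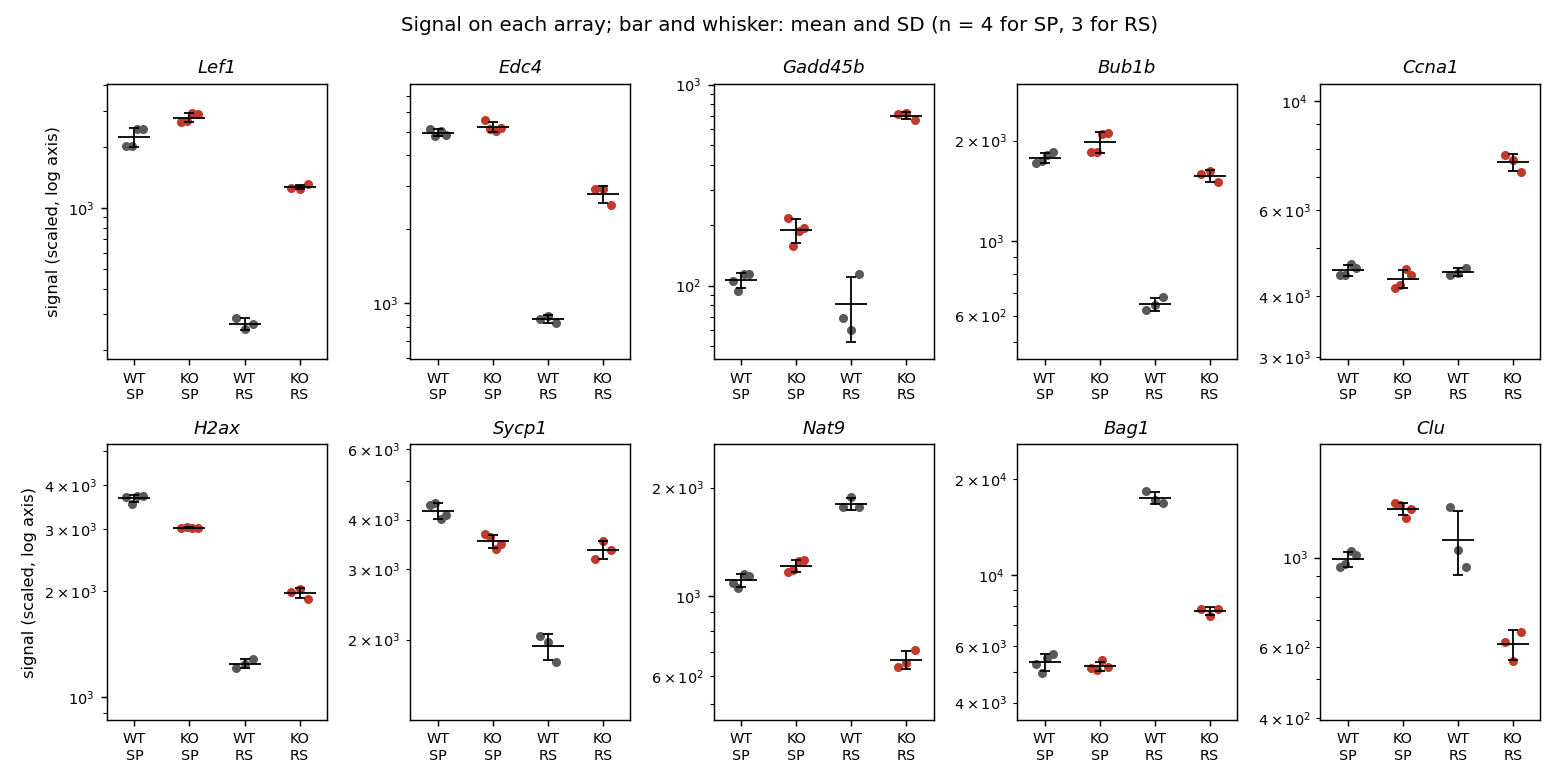
Scaled signal (log axis) on each array of 10 genes in WT (grey) and KO (red) spermatocytes (SP, 4 arrays each) and round spermatids (RS, 3 each); lines and whiskers are means and SDs. Lef1, Edc4 and Bub1b drop less from SP to RS in KO, Nat9 and Bag1 are lower in KO RS alone, and Sycp1, H2ax and Clu change in opposite directions at the 2 stages.

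Upstream sequences are shown for the leading genes with a RefSeq promoter entry, 2 per direction in order of size, because CREM, the transcription factor of the spermatid programme, binds the cyclic AMP response element TGACGTCA. The 250 bases before the first listed transcript start are given 5′ to 3′ on the gene's strand (RefSeq, GRCm38.p6), in lower case with any TGACG core on either strand in capitals. Rab6b lies at chr9:103111824-103112073 (+ strand), Pik3cd at chr4:149698709-149698958 (- strand, 1 of 3 listed starts), Vmn1r44 at chr6:89893024-89893273 (+ strand) and Gm39874 at chr2:91070101-91070350 (+ strand).
Rab6b: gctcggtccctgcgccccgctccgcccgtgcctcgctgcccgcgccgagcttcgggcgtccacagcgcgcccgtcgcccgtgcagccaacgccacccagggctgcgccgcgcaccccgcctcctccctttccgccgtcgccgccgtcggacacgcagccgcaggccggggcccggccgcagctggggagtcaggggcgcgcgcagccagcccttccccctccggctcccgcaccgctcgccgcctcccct
Pik3cd: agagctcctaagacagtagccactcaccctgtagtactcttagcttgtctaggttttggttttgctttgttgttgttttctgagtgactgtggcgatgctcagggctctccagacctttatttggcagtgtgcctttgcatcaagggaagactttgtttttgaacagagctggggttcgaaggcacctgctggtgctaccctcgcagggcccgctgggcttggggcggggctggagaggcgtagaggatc
Vmn1r44: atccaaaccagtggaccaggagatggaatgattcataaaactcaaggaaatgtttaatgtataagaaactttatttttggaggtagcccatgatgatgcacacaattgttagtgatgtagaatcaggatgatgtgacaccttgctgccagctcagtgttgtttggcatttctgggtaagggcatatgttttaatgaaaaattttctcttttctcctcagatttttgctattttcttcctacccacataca
Gm39874: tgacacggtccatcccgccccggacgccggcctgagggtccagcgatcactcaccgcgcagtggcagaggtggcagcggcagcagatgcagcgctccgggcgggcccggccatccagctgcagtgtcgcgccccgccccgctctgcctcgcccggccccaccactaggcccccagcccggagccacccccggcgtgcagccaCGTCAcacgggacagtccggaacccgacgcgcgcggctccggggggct
The first 2 belong to genes with a higher and the last 2 to genes with a lower effect in round spermatids. Of these windows only that of Gm39874 held the core, on the reverse strand. Of the 30 genes with the largest stage differences, 24 had an entry, and the core was found for 3 of 13 higher and 3 of 11 lower genes. It was present in 17.8% of all 32851 windows used and in 28.6% of 7485 windows of tested genes (1 per gene). Among genes called higher 29.6% of 2435 windows held it, and among genes called lower 25.9% of 1019. The full TGACGTCA was in 1.55% of all windows, in 3.1% of those of tested genes, in 3.16% of windows of higher genes and in 2.45% of those of lower genes. These counts describe letters in these windows, and the core is part of the full element.

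Genes of meiosis more often had a higher than a lower KO effect in round spermatids, under each of the 3 scalings. In the meiosis list, 20 of 42 tested genes (47 on the array) had a higher and 3 a lower effect, 47.6% and 7.14% in round spermatids, against 32.3% and 13.7% of all genes, with a median of 0.23 against 0.14. Over all genes the shares were 27.1% higher and 18.4% lower after quantile normalization, and 14.4% and 26.8% with centred arrays. Quantile normalization gave 18 higher and 4 lower, arrays centred on their medians 8 and 6, the replicate block 22 and 5, and averaged arrays 9 and 1, while leaving out 1 array gave 16 to 21 higher and 3 to 4 lower. Bub1b, a kinase of the spindle checkpoint, gave 624, 646 and 681 in WT and 1586, 1619 and 1499.9 in KO round spermatids. Its spermatocyte values of 1709, 1739.8, 1811 and 1847 in WT and 1847, 1851, 2085 and 2112 in KO lay close together, and its stage difference was 1.10 ± 0.09 (adjusted p = 1.5e-06). A second bright probe set of Bub1b read 1.01 (adjusted p = 0.000174).

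Cdk1, the kinase that drives entry into division, had 986, 1075 and 1029.5 in WT and 2067, 2083 and 1838 in KO round spermatids, and a stage difference of 0.91 ± 0.08 (adjusted p = 3.62e-06). Ccna1, the germ cell A-type cyclin, changed between the stages by -0.0098 in WT and by 0.79 in KO. It had 4417, 4448 and 4562 in WT and 7767, 7601 and 7169 in KO round spermatids, with a stage difference of 0.80 ± 0.07 (adjusted p = 2.73e-06). The 3 lower genes, chosen after their values were seen, were Syce2 (-0.69 ± 0.10) and Syce3 (-0.48 ± 0.10), which are synaptonemal complex proteins, and Spo11 (-0.29 ± 0.08), which cuts DNA to start recombination. Synaptonemal complex genes thus went both ways, since Sycp1 had 1.05 ± 0.09.

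Markers chosen for spermatocytes overlapped this list: 11 of 21 tested genes (22 on the array) had a higher and 2 a lower effect. That is 52.4% and 9.52%, against 32.3% and 13.7% of all genes, with a median of 0.23. Quantile normalization gave 14 higher and 2 lower, arrays centred on their medians 6 and 2, the replicate block 12 and 5, and averaged arrays 7 and 0, while leaving out 1 array gave 8 to 11 higher and 1 to 2 lower. Aurka, a kinase of spindle assembly, gave 5549, 5418 and 5453 in WT and 8748, 8176 and 8408 in KO round spermatids, while its KO effect in spermatocytes was -0.02 ± 0.06. Its stage difference was 0.64 ± 0.08 (adjusted p = 5.43e-05), but a dim second probe set read -0.70 (adjusted p = 0.175). Piwil1, the PIWI protein of pachytene piRNAs, had 495, 549 and 526 in WT and 946, 1004 and 915 in KO round spermatids, with a stage difference of 0.61 ± 0.08 (adjusted p = 5.58e-05).

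The chromatoid body is the granule in which GRTH resides, and piRNAs act in and around it. In this list 14 of 35 tested genes (39 on the array) had a higher and 2 a lower effect. These shares were 40% and 5.71%, against 32.3% and 13.7% of all genes, with a median of 0.22. Quantile normalization gave 14 higher and 1 lower, arrays centred on their medians 6 and 5, the replicate block 16 and 7, and averaged arrays 6 and 0, while leaving out 1 array gave 11 to 17 higher and 2 to 3 lower. Tdrd1, a Tudor-domain protein that assembles piRNA complexes, had 233, 209.5 and 229 in WT and 524, 511 and 419.6 in KO round spermatids, and in spermatocytes 1920.5, 1953, 1914 and 1876 in WT and 1825, 1832, 2005 and 1889 in KO. Its groups overlapped at the earlier stage alone, and its stage difference was 1.08 ± 0.10 (adjusted p = 4.09e-06). Tdrd9, a helicase of the same pathway (0.71 ± 0.07), and Tdrd5 (0.65 ± 0.09) also had higher effects, with adjusted p of 6.33e-06 and 8.2e-05.

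RNA-binding translation regulators control how stored transcripts are read, and their median stage difference was 0.33. In this list 18 of 40 tested genes (45 on the array) had a higher and 4 a lower effect. Against 32.3% and 13.7% of all genes, that is 45% and 10%. Quantile normalization gave 19 higher and 2 lower, arrays centred on their medians 10 and 9, the replicate block 23 and 7, and averaged arrays 13 and 0, while leaving out 1 array gave 16 to 18 higher and 2 to 5 lower. The 2 lower ones came without WT spermatocyte array 4, WT round spermatid array 1, or KO round spermatid array 2 or 3. Elavl1 (HuR), which stabilises AU-rich transcripts, gave 241, 186 and 229 in WT and 668, 600.1 and 604 in KO round spermatids, and its stage difference was 1.12 ± 0.11 (adjusted p = 6.95e-06). Of its 5 other probe sets, which were dimmer, 1 passed, at 0.68 (adjusted p = 0.00677). That one fell in KO spermatocytes (-0.71) and hardly changed in KO round spermatids (-0.03). Dazl, a translational activator of germ cells, had 1488, 1531 and 1639.8 in WT and 2647, 2743 and 2769 in KO round spermatids.

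From spermatocytes to round spermatids Dazl changed by -0.43 (log2) in WT and by 0.33 in KO. The stage difference was 0.76 ± 0.09 (adjusted p = 2.54e-05), with 0.70 by another probe set (adjusted p = 0.018). Ptbp2, a splicing regulator of the germ line and brain, had 1627, 1683 and 1641 in WT and 2736, 2742 and 2842 in KO round spermatids, and 0.71 ± 0.07 as stage difference. Fmr1, a translational repressor, had 0.76 ± 0.10, and its other probe sets read 1.01 and 1.49 (adjusted p = 0.0213 and 0.0347).

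**Figure D4:**
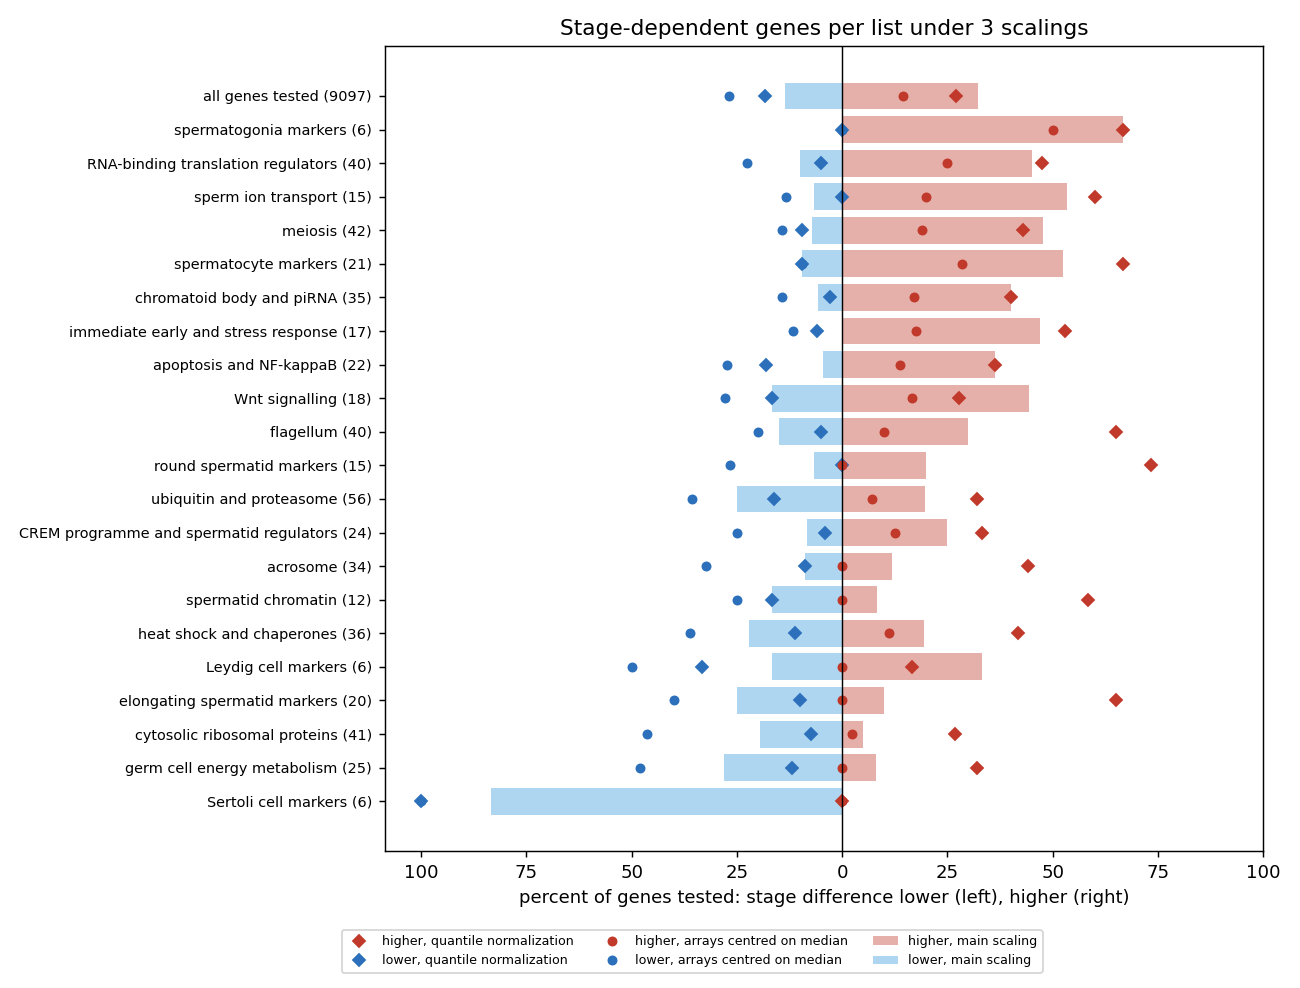
Share of each list's tested genes (number in brackets) with a called stage difference, lower to the left and higher to the right, in percent. Bars are the main scaling, diamonds quantile normalization and circles arrays centred on their medians; for all genes the bars are 32.3% and 13.7%. Elongating and round spermatid markers and spermatid chromatin genes move from mostly higher (diamonds) to none higher (circles) with the scaling, while Sertoli cell markers stay on the left and spermatogonia markers on the right.

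Markers of elongating spermatids fell in KO cells by nearly equal amounts at both stages. Of 20 tested genes 19 were lower in KO round spermatids and 18 in KO spermatocytes, with medians of -1.001 and -0.98. Their stage differences were called higher for 2 (10%, against 32.3% of all genes) and lower for 5 (25%, against 13.7%), with a median of -0.12. Quantile normalization gave 13 higher and 2 lower, arrays centred on their medians 0 and 8, the replicate block 5 and 8, and averaged arrays 1 and 3, while leaving out 1 array gave 1 to 5 higher and 4 to 9 lower, so the direction of this list turned with the scaling. Without WT round spermatid array 3 it had 9 lower genes, and without WT round spermatid array 1 or KO round spermatid array 3 there were 5 higher ones. Fscn3, an actin-bundling fascin of the testis, gave 15729, 14328 and 13939 in WT and 2993, 3075 and 3222 in KO round spermatids. In spermatocytes it gave 1443, 1493, 1508 and 1533 in WT and 483, 545, 454 and 502 in KO. The effects at the stages differed by -0.67 ± 0.09 (adjusted p = 6.7e-05), and that of Tex37 -0.77 ± 0.08 (adjusted p = 9.03e-06). Both were called lower under all 3 scalings. Spata18, a mitochondrial quality control gene, and Lelp1 had -0.51 ± 0.10 and -0.43 ± 0.08, and neither passed after quantile normalization (adjusted p = 0.366 and 0.217). Averaged arrays also ended the call of Spata18 (0.0526).

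In the main scaling few genes that compact the spermatid nucleus were called, and these went both ways. In the spermatid chromatin list 1 of 12 tested genes (14 on the array) had a higher and 2 a lower effect, and 9 were not called. That is 8.33% and 16.7%, against 32.3% and 13.7% of all genes, with a median of -0.02. Quantile normalization gave 7 higher and 2 lower, arrays centred on their medians 0 and 3, the replicate block 3 and 2, and averaged arrays 1 and 1, while leaving out 1 array gave 1 to 2 higher and 2 to 4 lower. H2bl1, a spermatid histone variant, fell at both stages, lying between 16839 and 18926 in WT and between 5666 and 6495 in KO round spermatids, and between 2201 and 2222 in WT and between 1223 and 1317 in KO spermatocytes. Between stages its effects differed by -0.72 ± 0.08 (adjusted p = 2.14e-05). H2al2a, another variant, had -0.60 ± 0.12 (adjusted p = 0.00114, and 0.06 with averaged arrays). Prm2, the protamine that replaces histones last, went the other way. It lay between 18084 and 22269.7 in WT and between 9516 and 10606 in KO spermatocytes. It had 42590.0, 39157 and 33817 in WT against 33316, 30682 and 26889.6 in KO round spermatids, so the genotypes did not overlap at either stage. Its fall was smaller there, with a stage difference of 0.63 ± 0.13 (adjusted p = 0.00155), or adjusted p = 0.0536 with centred arrays.

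Sperm tail genes had shares close to those of all genes (32.3% higher, 13.7% lower) in the main scaling, but not after quantile normalization. The latter called 65% higher and 5% lower, against 27.1% and 18.4% of all genes. In the flagellum list 12 of 40 tested genes (41 on the array) had a higher and 6 a lower effect, 30% and 15%, with a median of 0.08. Quantile normalization gave 26 higher and 2 lower, arrays centred on their medians 4 and 8, the replicate block 15 and 8, and averaged arrays 4 and 2, while leaving out 1 array gave 10 to 14 higher and 5 to 8 lower. Dnaic2, a dynein intermediate chain of the axoneme, gave 2182, 2266 and 2338 in WT and 3478, 3678 and 3872 in KO round spermatids against 2790.5, 2941, 2918 and 3036 in WT and 2454, 2549.7, 2682 and 2779.8 in KO spermatocytes, with a stage difference of 0.85 ± 0.08 (adjusted p = 4.85e-06). Dnaic1, another such chain, had 0.56 ± 0.07 (adjusted p = 4.11e-05), and 0.53 by another probe set (adjusted p = 0.00222). Ift172, an intraflagellar transport protein, had a lower effect, at -0.68 ± 0.10 (adjusted p = 0.000137), with 17398, 15791 and 14072 in WT and 10289.9, 9355 and 8789 in KO round spermatids.

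Among ion channels and transporters of sperm, 8 of 15 tested genes (19 on the array) had a higher and 1 a lower effect, 53.3% and 6.67%, against 32.3% and 13.7% of all genes, with a median of 0.31. Quantile normalization gave 9 higher and 0 lower, arrays centred on their medians 3 and 2, the replicate block 8 and 1, and averaged arrays 2 and 0, while leaving out 1 array gave 6 to 8 higher and 1 lower. Lrrc52, the partner of the sperm potassium channel, was lower in KO spermatocytes (-0.26 ± 0.06) and higher in KO round spermatids (0.29 ± 0.07). Its stage difference was 0.54 ± 0.09 (adjusted p = 0.000347), but a dim second probe set read -0.56 (adjusted p = 0.121). Slc36a3, an amino acid transporter family member (0.56 ± 0.12), and Catsperg1, an auxiliary CatSper subunit (0.75 ± 0.15), showed the same signs, and the latter had adjusted p = 0.0625 with averaged arrays. In the acrosome list 4 of 34 tested genes (34 on the array) had a higher and 3 a lower effect, 11.8% and 8.82%, with a median of -0.01. Quantile normalization gave 15 higher and 3 lower, arrays centred on their medians 0 and 11, the replicate block 10 and 8, and averaged arrays 0 and 0, while leaving out 1 array gave 3 to 6 higher and 3 to 7 lower. The 7 lower genes came without WT round spermatid array 3. Cylc2, a basic protein of the sperm head skeleton, had -0.57 ± 0.13 (adjusted p = 0.00321), or adjusted p = 0.0581 with averaged arrays, and was among the genes lower in all 3 scalings.

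For transcription regulators of spermatids the comparison with all genes, 32.3% higher and 13.7% lower, was not tested. In the list of the CREM programme and spermatid regulators 6 of 24 tested genes (29 on the array) had a higher and 2 a lower effect, 25% and 8.33%, with a median of -0.003. Quantile normalization gave 8 higher and 1 lower, arrays centred on their medians 3 and 6, the replicate block 7 and 4, and averaged arrays 3 and 0, while leaving out 1 array gave 5 to 6 higher and 1 to 2 lower. Mybl1 (A-MYB), which switches on pachytene genes, had 198, 209 and 207 in WT and 414, 414 and 366 in KO round spermatids. In spermatocytes it had 1436, 1496, 1232 and 1294 in WT and 1069, 1067, 1049.7 and 1139 in KO, so the KO arrays were higher at the later and lower at the earlier stage. The stage difference was 1.23 ± 0.10 (adjusted p = 1.65e-06), and another probe set read 1.07 (adjusted p = 0.00133). Taf7l, a testis TFIID subunit on the X chromosome, also had opposite effects (0.22 ± 0.07 and -0.31 ± 0.06, stage difference 0.53 ± 0.09). Round spermatid markers had 3 higher and 1 lower stage differences of 15. For these, quantile normalization gave 11 higher and 0 lower, arrays centred on their medians 0 and 4, the replicate block 3 and 2, and averaged arrays 0 and 0, while leaving out 1 array gave 1 to 2 higher and 0 to 3 lower.

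Opposite KO effects at the 2 stages are described for the 8 genes with the smallest adjusted p, of which Mybl1 is given above. H2ax, the histone variant that marks DNA breaks and the silenced sex chromosomes, had 3692, 3531, 3718 and 3714 in WT and 3012, 3034, 3015 and 3026 in KO spermatocytes. In round spermatids it had 1209, 1241 and 1284 in WT and 1989, 2024 and 1904 in KO. The genotypes did not overlap at either stage but changed places, and the stage difference was 0.93 ± 0.06 (adjusted p = 4.6e-07). Sycp1, a transverse filament of the synaptonemal complex, had 4344, 4411, 4007 and 4099 in WT and 3681, 3608, 3383 and 3465 in KO spermatocytes. In round spermatids it had 2038, 1978 and 1763 in WT and 3181, 3538 and 3352 in KO. The change between stages was -1.12 in WT and -0.07 in KO, for a stage difference of 1.05 ± 0.09 (adjusted p = 2.42e-06).

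Bysl, a ribosome biogenesis factor, had KO effects of -0.18 ± 0.05 in spermatocytes and 0.84 ± 0.05 in round spermatids (stage difference 1.02 ± 0.07), and the other probe set gave 0.42 (adjusted p = 0.0667). Lpxn, a focal adhesion adaptor, had -0.22 ± 0.05 and 0.72 ± 0.06 (stage difference 0.95 ± 0.08). Ccdc171 had -0.41 ± 0.08 and 1.03 ± 0.09. The reverse order, higher in KO spermatocytes and lower in KO round spermatids, was seen in Tmco1, a calcium channel of the endoplasmic reticulum. It had 1210.2, 1271 and 1125 in WT and 576, 636 and 621 in KO round spermatids, against 1305, 1336, 1218 and 1269.8 in WT and 1427, 1459, 1415 and 1451 in KO spermatocytes, and its stage difference was -1.12 ± 0.08 (adjusted p = 5.14e-07). Dnajc21, a co-chaperone of ribosome maturation, had 0.36 ± 0.05 and -0.49 ± 0.06 (stage difference -0.85 ± 0.07), with -0.70 by its other bright probe set (adjusted p = 0.00842).

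Chaperones and protein turnover genes went both ways. In the heat shock list 7 of 36 tested genes (39 on the array) had a higher and 8 a lower effect. These shares were 19.4% and 22.2%, against 32.3% and 13.7% of all genes, with a median of -0.03. Quantile normalization gave 15 higher and 4 lower, arrays centred on their medians 4 and 13, the replicate block 9 and 14, and averaged arrays 4 and 2, while leaving out 1 array gave 4 to 7 higher and 6 to 11 lower. The 4 higher ones came without KO round spermatid array 2. Bag1, a cofactor of HSP70 chaperones, gave 18323, 17165 and 16848 in WT and 7873, 7461 and 7862 in KO round spermatids, and in spermatocytes 5266, 4952, 5515 and 5688 in WT and 5133, 5066, 5453 and 5187 in KO. Its groups were far apart at the later stage and overlapped at the earlier one, for a stage difference of -1.13 ± 0.08 (adjusted p = 5.55e-07). Hspa1l, the spermatid HSP70, fell at both stages (-0.94 ± 0.05 and -1.60 ± 0.06, stage difference -0.66 ± 0.08). Hspa8, the constitutive HSP70, rose at both (0.28 ± 0.06 and 0.92 ± 0.07, stage difference 0.64 ± 0.09).

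In the ubiquitin and proteasome list 11 of 56 tested genes (57 on the array) had a higher and 14 a lower effect. That is 19.6% and 25%, against 32.3% and 13.7% of all genes, with a median of 0.02. Quantile normalization gave 18 higher and 9 lower, arrays centred on their medians 4 and 20, the replicate block 15 and 18, and averaged arrays 4 and 6, while leaving out 1 array gave 8 to 12 higher and 11 to 17 lower. Psma4, a core proteasome subunit, had 2463, 2379.6 and 2541 in WT and 3736, 3805 and 4000.0 in KO round spermatids and a stage difference of 0.58 ± 0.07 (adjusted p = 1.81e-05). Rnf133, a spermatid ubiquitin ligase, fell at both stages, lying between 16052 and 19243 in WT and between 6329 and 6444 in KO round spermatids, and between 2072 and 2183 in WT and between 1172 and 1300.0 in KO spermatocytes. The effects at the stages differed by -0.67 ± 0.09 (adjusted p = 5.23e-05). Usp44, a deubiquitinase, had -0.66 ± 0.09. Ube2b, the conjugating enzyme needed for histone removal in spermatids, had -0.62 ± 0.08 (adjusted p = 7.43e-05), but its other bright probe set read 0.03 (adjusted p = 0.868) and a dim one 0.90 (0.0385).

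Ribosomal protein genes and genes of sperm energy supply had low medians that depended on the scaling. Among ribosomal protein genes 2 of 41 tested genes (46 on the array) had a higher and 8 a lower effect. These shares were 4.88% and 19.5%, against 32.3% and 13.7% of all genes, with a median of -0.15. Quantile normalization gave 11 higher and 3 lower, arrays centred on their medians 1 and 19, the replicate block 3 and 20, and averaged arrays 1 and 1, while leaving out 1 array gave 2 to 3 higher and 4 to 10 lower. The lower ribosomal genes numbered 5 without WT spermatocyte array 4, KO spermatocyte array 1 or KO round spermatid array 3, and 4 without WT round spermatid array 1. Rpl10a, one of the higher genes, had 1909, 1908 and 1985 in WT and 3628, 3603 and 3049 in KO round spermatids and a stage difference of 0.66 ± 0.09 (adjusted p = 7.45e-05). Rps15 had -0.43 ± 0.10 (adjusted p = 0.00265), which averaged arrays did not call (adjusted p = 0.0862), and the other probe set gave -0.13 (0.446). In the energy metabolism list 2 of 25 tested genes (26 on the array) had a higher and 7 a lower effect, 8% and 28%, with a median of -0.18. Quantile normalization gave 8 higher and 3 lower, arrays centred on their medians 0 and 12, the replicate block 3 and 12, and averaged arrays 0 and 2, while leaving out 1 array gave 1 to 3 higher and 4 to 9 lower. The 4 lower ones came without KO spermatocyte array 3 or KO round spermatid array 2. Tpi1, a glycolytic enzyme, had 16383, 15349 and 13512 in WT and 11955, 11312 and 9557 in KO round spermatids and a stage difference of -0.64 ± 0.12 (adjusted p = 0.00101), with -0.54 and -0.81 by its other probe sets (adjusted p = 0.00692 and 0.000366). Adcy10, the soluble adenylyl cyclase of sperm, had -0.39 ± 0.07 (adjusted p = 0.000474).

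Lists of stress, cell death and Wnt genes had shares of higher calls above the 32.3% of all genes, by little for apoptosis, and for apoptosis and Wnt genes the majority turned with centred arrays as it did over all genes. In the immediate early and stress list 8 of 17 tested genes (35 on the array) had a higher and 0 a lower effect, 47.1% and 0%, with a median of 0.22. Quantile normalization gave 9 higher and 1 lower, arrays centred on their medians 3 and 2, the replicate block 8 and 1, and averaged arrays 2 and 0, while leaving out 1 array gave 6 to 8 higher and 0 to 1 lower. Beside Gadd45b, Sqstm1, an autophagy adaptor, had 753, 734 and 852 in WT and 1234, 1221 and 1246 in KO round spermatids and a stage difference of 0.60 ± 0.08 (adjusted p = 4.19e-05). In the apoptosis and NF-kappaB list 8 of 22 tested genes (39 on the array) had a higher and 1 a lower effect, 36.4% and 4.55%, with a median of 0.20. Quantile normalization gave 8 higher and 4 lower, arrays centred on their medians 3 and 6, the replicate block 10 and 2, and averaged arrays 4 and 1, while leaving out 1 array gave 7 to 9 higher and 1 to 2 lower. Bad, a pro-apoptotic BCL2 relative, gave 977, 919.8 and 914 in WT and 2194, 1676 and 1665 in KO round spermatids, with 0.83 ± 0.12 (adjusted p = 8.72e-05) and 0.54 by its other probe set (adjusted p = 0.00146). Rela, the p65 subunit of NF-kappaB, had 0.62 ± 0.09 (adjusted p = 0.000104). Mcl1, an anti-apoptotic BCL2 relative, was the lower gene (-0.45 ± 0.09), and none of its 5 other probe sets passed.

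In the Wnt list 8 of 18 tested genes (43 on the array) had a higher and 3 a lower effect. That is 44.4% and 16.7%, against 32.3% and 13.7% of all genes, with a median of 0.17. Quantile normalization gave 5 higher and 3 lower, arrays centred on their medians 3 and 5, the replicate block 8 and 3, and averaged arrays 3 and 2, while leaving out 1 array gave 7 to 8 higher and 2 to 3 lower. Apart from Lef1, Lrp5, a Wnt co-receptor, was lower in KO spermatocytes (-0.66 ± 0.08) and had 660.5, 722 and 648 in WT and 665, 741 and 737 in KO round spermatids, where the genotypes overlapped, for a stage difference of 0.74 ± 0.12 (adjusted p = 0.000224). Ctbp2 (-0.75 ± 0.07) and Tle3 (-0.91 ± 0.18), corepressors named by smallest adjusted p, had lower effects. The list also holds the corepressors Ctbp1 and Tle1, which are not described here. Another bright probe set of Ctbp2 read 0.34 (adjusted p = 0.111), and no other probe set of Tle3 passed.

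Of the markers of earlier germ cells, 4 of 6 tested genes (14 on the array) had a higher and 0 a lower effect. These shares were 66.7% and 0%, against 32.3% and 13.7% of all genes, with a median of 0.53. Quantile normalization gave 4 higher and 0 lower, arrays centred on their medians 3 and 0, the replicate block 4 and 0, and averaged arrays 3 and 0, while leaving out 1 array gave 4 higher and 0 lower. Dmrt1, a regulator of the switch to meiosis, had 595, 636 and 649 in WT and 1041, 1097 and 1052 in KO round spermatids, and its stage difference was 0.82 ± 0.11 (adjusted p = 5.47e-05). Stra8, which starts meiosis, had 377, 495 and 459.7 in WT and 644, 726 and 819 in KO round spermatids, and 0.92 ± 0.19 (adjusted p = 0.00134). Neither changed in KO spermatocytes by the test (-0.07 ± 0.07 and -0.22 ± 0.12). The summed signal of all 14 markers on the array was 7259 to 8039.9 in WT and 7380.4 to 8215 in KO spermatocytes, and 3529 to 3972 in WT and 5051 to 5518 in KO round spermatids. Such a sum weighs the brightest markers most. Their mean log2 signal went the other way between stages. It was 7.35 to 7.43 in WT and 7.43 to 7.50 in KO spermatocytes, and 7.71 to 7.86 in WT and 8.07 to 8.19 in KO round spermatids. The part that other germ cells in the fractions had in these results was not tested.

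Markers of Sertoli cells, the supporting cells of the tubule, had the lowest median of all lists (-0.68). Of 6 tested genes (19 on the array) 0 had a higher and 5 a lower effect. That is 0% and 83.3%, against 32.3% and 13.7% of all genes. Quantile normalization gave 0 higher and 6 lower, arrays centred on their medians 0 and 6, the replicate block 0 and 5, and averaged arrays 0 and 3, while leaving out 1 array gave 0 higher and 4 to 5 lower. Clu (clusterin) gave 950.0, 964, 1038 and 1016 in WT and 1365, 1349, 1258 and 1319 in KO spermatocytes. In round spermatids it gave 1334, 1043 and 948 in WT and 618, 554 and 655 in KO. It was higher in KO at the earlier and lower at the later stage, with a stage difference of -1.24 ± 0.13 (adjusted p = 1.22e-05), and its 3 other probe sets read -0.90, -1.42 and -0.85 (adjusted p = 0.000514, 2.67e-05 and 0.000278). The cystatins Cst9 (-0.76 ± 0.10) and Cst12 (-0.86 ± 0.13) fell at both stages and more in round spermatids. Summed Sertoli marker signal was 2919.6 to 3157 in WT and 3312 to 3476 in KO spermatocytes, and 5464 to 5692 and 3815 to 4026 in round spermatids, with no marker at 0. The part these cells had in the results was not tested.

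For Leydig cells, the steroid-producing cells of the interstitium, 2 of 6 tested genes (10 on the array) had a higher and 1 a lower effect. That is 33.3% and 16.7%, against 32.3% and 13.7% of all genes, with a median of -0.06. Quantile normalization gave 1 higher and 2 lower, arrays centred on their medians 0 and 3, the replicate block 2 and 1, and averaged arrays 0 and 1, while leaving out 1 array gave 1 to 2 higher and 0 to 3 lower. Cyp11a1, the side-chain cleavage enzyme, had 41.9, 45.7 and 65.2 in WT and 157, 168 and 101 in KO round spermatids and 592 to 667 and 927 to 1026 in spermatocytes. Its stage difference of 0.62 ± 0.20 (adjusted p = 0.0185) was lost with centred arrays (adjusted p = 0.116), with averaged arrays (0.298), and with a block of replicate pairs within each stage (0.0643), and also without WT round spermatid array 1 (0.0543) or KO round spermatid array 2 (0.055). Its dim other probe sets read 0.04 and -0.98 (adjusted p = 0.938 and 0.469). Alternatives for Cyp11a1 gave adjusted p up to 0.298. Summed signal of the 10 Leydig markers was 7114 to 7731 in WT and 9535 to 10503 in KO spermatocytes, and 1128 to 1157 and 1467 to 1740.2 in round spermatids, with none at 0. It was thus higher in KO at both stages, and its part in the results was not tested.

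Few other somatic markers were bright enough to test. In the macrophage list 1 of 3 tested genes (14 on the array) had a higher and 1 a lower effect, 33.3% and 33.3%. The smooth muscle list had 0 higher and 2 lower of 4 tested genes (11 on the array), 0% and 50%. Of all genes tested 32.3% were higher and 13.7% lower. None of 9 endothelial or 5 red cell genes passed the filter. For macrophage genes, quantile normalization gave 0 higher and 0 lower, arrays centred on their medians 0 and 1, the replicate block 1 and 1, and averaged arrays 1 and 0, while leaving out 1 array gave 1 higher and 1 lower. For smooth muscle genes, quantile normalization gave 0 higher and 1 lower, arrays centred on their medians 0 and 2, the replicate block 0 and 3, and averaged arrays 0 and 1, while leaving out 1 array gave 0 higher and 1 to 3 lower. Summed macrophage signal was 3535 to 3791 and 2424 to 2659 in WT and KO spermatocytes and 17634 to 22794 and 10574 to 11369.9 in round spermatids. Aif1 alone made up between 73.7% and 87.8% of it. For smooth muscle genes the sums were 3046 to 3287, 2398 to 2685, 12189.5 to 14129 and 6699.6 to 6876 in the same order, with Actg2 at 38.1% to 89.1%. No marker was at 0, and their part in the results was not tested. Igfbp7, a secreted growth factor-binding protein, had -0.76 ± 0.18 (adjusted p = 0.00341), with KO effects of 0.45 ± 0.12 in spermatocytes and -0.31 ± 0.13 in round spermatids.

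Stage-dependent genes were spread over the genome. On the autosomes between 42.3% and 51% of tested genes were called, against 46% of all. The X chromosome, which is silenced in pachytene spermatocytes and partly reactivated afterwards, had 77 calls among 171 tested genes (45%), 45 higher and 32 lower. Its median change from spermatocytes to round spermatids was 1.56 in WT and 1.83 in KO, and its median stage difference 0.16. Chromosome 9, which carries Ddx25, had 249 calls among 537 genes (46.4%).

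Other probe sets not yet given were on the same side for Catsperg1 (0.62, adjusted p = 0.0164), Id4 (0.41, 0.0151), Pfkp (0.91, 0.00599) and Vcam1 (-1.001, 0.01), where at least 1 passed. For Hspa8 (0.43, 0.00735) and Rpl35 (-0.39, 0.00926) 1 also passed on the same side. A dim probe set of each read the other way without passing (Hspa8 -0.23, adjusted p = 0.741, and Rpl35 0.55, 0.334). None passed for Krtap12-1, Dnaic2, Ptbp2, Sqstm1, Igfbp7, Csf1r, Ddit3, Fabp3 and Taf4b. The remaining genes picked per list had smaller stage differences. Of the germ cell genes, Hsf5, a heat shock factor of spermatocytes, had 0.50 ± 0.07 (adjusted p = 8.39e-05) and kept its call in every alternative run, as did Mcl1. Uchl1, a ubiquitin hydrolase of spermatogonia, had 0.43 ± 0.10, but adjusted p = 0.0967 with centred arrays. Rpl35 had -0.37 ± 0.08, but adjusted p = 0.825 after quantile normalization. The calls of Acr (0.32 ± 0.08, adjusted p = 0.0887 with averaged arrays), Prss21 (0.28 ± 0.06, adjusted p = 0.0979 with averaged arrays) and Prss55 (-0.39 ± 0.09, adjusted p = 0.0713 with averaged arrays), which are serine proteases of the acrosome or testis, did not hold when closely agreeing arrays were averaged. The same was true of Pfkp (0.33 ± 0.06, adjusted p = 0.0655 with averaged arrays) and Aldoart1 (-0.52 ± 0.13, adjusted p = 0.129 with averaged arrays), glycolytic genes, of Kcnu1 (0.33 ± 0.08, adjusted p = 0.071 with averaged arrays), the sperm potassium channel, and of Rpl19 (-0.34 ± 0.08, adjusted p = 0.0793 with averaged arrays). It was also true of Klf2 (0.65 ± 0.17, adjusted p = 0.095 with averaged arrays), Ddit3 (0.29 ± 0.08, adjusted p = 0.168 with averaged arrays) and Pdcd6 (0.30 ± 0.06, adjusted p = 0.102 with averaged arrays), which are stress or cell death genes, and of the transcription regulators Taf4b (0.38 ± 0.09, adjusted p = 0.101 with averaged arrays) and Id4 (0.62 ± 0.16, adjusted p = 0.0759 with averaged arrays). Tex101 (0.43 ± 0.09, adjusted p = 0.0635), Cby2 (-0.25 ± 0.09, 0.212), Sun5 (0.16 ± 0.06, 0.299) and Tex29 (0.21 ± 0.08, 0.287), round spermatid markers, lost theirs in the same way. Of the somatic markers, Aif1 (-0.46 ± 0.12, adjusted p = 0.135 with averaged arrays), Actg2 (-0.28 ± 0.10, adjusted p = 0.284 with averaged arrays), Vcam1 (-0.49 ± 0.19, adjusted p = 0.279 with averaged arrays), Fabp3 (0.42 ± 0.12, adjusted p = 0.22 with averaged arrays) and Aard (-0.60 ± 0.16, adjusted p = 0.0825 with averaged arrays) did so, while Csf1r (0.49 ± 0.14) lost its call with centred arrays (adjusted p = 0.196). The calls of Vcam1 and Actg2, and of Cby2, Sun5 and Tex29, were also lost without single arrays (adjusted p up to 0.131).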

How the data were processed

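RNA of separated germ cells was measured on 1-colour arrays (14 used, of 28 in the series). The authors deposited a linear signal intensity for each of 45101 probe sets, made with GCOS per the submitters' processing notes, which name no version. Each array was rescaled to a trimmed mean of 500 (0.02 trimmed at each end) and transformed to log2(signal + 16), which understates changes of dim genes.

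Probe sets were named by the platform's annotation (34945 with 1 symbol, 932 with several, 9160 with none; 64 controls left out), and 34741 of the Entrez identifiers were found in RefSeq. A gene was its brightest probe set over 28 arrays, and the 9097 of 18193 genes at or above the median over the 14 arrays were tested. A means model of 4 groups gave the stage difference and both KO effects (limma 3.58.1, R 4.3.3, data.table version 1.17.8), with Benjamini-Hochberg adjustment over all genes tested and a threshold of 0.05; values are log2 differences ± SE. Every adjusted p is limma's; that of another probe set comes from a fit over all probe sets with 1 symbol.

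Same-numbered arrays deviated together from their group means (19 pairs, r from 0.128 to 0.351), so the data, not the labels, pair them; the block has 4 replicate numbers. Lists and members were chosen with earlier results of these data known. Named were the 15 highest and 15 lowest called stage differences, Ddx25, up to 4 called genes per list and 8 genes with opposite effects, by smallest adjusted p. The fit was tested on simulated data with independent noise on each array. That setting does not cover the likeness of same-numbered or closely agreeing arrays. Figures were drawn with matplotlib 3.10.9 (Python 3.11.15, pandas 2.3.3, numpy 2.4.6). Precision is limited by the number of arrays, 3 or 4 per group.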

Additional observations from a re-analysis of the deposited data

Results flagged for a closer look

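The KO effect differed between round spermatids and spermatocytes for 4186 genes by the test of the difference itself. Of the 8 named genes with opposite effects, 6 had a higher effect in round spermatids: Ccdc171 (1.44), Mybl1 (1.23), Sycp1 (1.05), Bysl (1.02), Lpxn (0.95) and H2ax (0.93). The other 2 had a lower one: Tmco1 (-1.12) and Dnajc21 (-0.85).

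Single spermatocyte arrays lay far from the other 3 of their group for 8 of 230 combinations of gene and group. That is no more than chance gives, about 1 in 20. Only the spermatocyte groups, of 4 arrays each, were tested in this way. In WT spermatocytes Nrip2 read 130.2 on array 2 against 282 to 313 on the others, and Rab6b 616 on array 3 against 246 to 306. Slc5a9 read 60.2 on array 4 against 115 to 121, and Klk1b21 302 on array 1 against 224 to 234. H2ax read 3531 on array 2 against 3692 to 3718, and Usp44 1840.5 on array 2 against 1748 to 1755. In KO spermatocytes Tecpr2 read 449.7 on array 4 against 328 to 340.1, and Hspa8 3109 on array 1 against 3344 to 3361.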

How the results depend on the processing

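Of 3264 comparisons of 114 called genes with an alternative, 3119 kept direction and call, 141 kept direction only and 4 reversed. The reversals were Cby2 (0.18) and Actg2 (0.016) after quantile normalization, and Sun5 (-0.0604) and Tex29 (-0.0097) with centred arrays. The count of 4186 became 2516 with fewer genes tested (75th percentile), 6617 with every probe set on its own, which tests more features, and 1737 with fewer arrays (closely agreeing arrays averaged). The 2941 higher calls became 1306 with centred arrays, 1676 at the 75th percentile, 4781 over probe sets and 1219 with averaged arrays, and the 1245 lower calls 2437 with centred and 518 with averaged arrays. Of stage differences of at least 1, the 143 higher became 60 (quantile), 36 (centred), 66 (64 added before the log), 301 (no filter), 61 (75th percentile) and 444 (probe sets), and the 97 lower 186, 341, 35 and 182 for centred arrays, no filter, 75th percentile and probe sets. KO effects in round spermatids gave 3309 calls at the 75th percentile and 10085 over probe sets, and those in spermatocytes 1715 at the 75th percentile and 1105 with averaged arrays. For the scalings and the added constant the cause was not tested. Leaving out 1 array gave 3728 to 4495 calls, 2610 to 3130 higher and 1105 to 1365 lower, 118 to 180 and 89 to 102 of at least 1, and 5658 to 6116 and 2638 to 3420 KO effects. The replicate block gave 4975 calls, of which 4151 were among the 4186, and changed no named call beside that of Ddx25; pairs within each stage also ended that of Cyp11a1. For Ddx25 the stage difference passed with quantile normalization (0.80), the block (0.29), array weights (0.26), 18 arrays (0.29), arrays 1 and 2 alone (0.45) and arrays 1 to 3 alone (0.35), and spanned 0.23 to 0.36 without 1 array. It did not pass with centred arrays (0.068, adjusted p = 0.751) or averaged arrays (0.28, 0.244). Without WT spermatocyte array 4 (adjusted p = 0.0269), WT round spermatid array 1 (0.0358) or KO round spermatid array 3 (0.0423) it also passed. Dim genes are limited by their signal over background, since the constant of 16 shrinks their differences.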

Other observations

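The change from spermatocytes to round spermatids, which the stage difference compares between genotypes, spread less over genes in KO than in WT cells. Its SD over the 9097 genes was 1.29 in WT and 1.16 in KO. Genes at least 1 (log2) brighter in round spermatids numbered 1806 in WT and 1811 in KO, and genes at least 1 dimmer numbered 2297 in WT and 1666 in KO. These are group means with no test, for the scaling used throughout. Counts past a fixed cut-off depend on the scaling, with which the median stage difference turned, from 0.14 to -0.08 with centred arrays.

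Some genes below the filter had large stage differences in a fit of all 18193 genes, and the following were chosen after their values were seen. Dscaml1, a cell adhesion molecule encoded on chromosome 9 like Ddx25, had signals of 2111, 2083 and 2327 in WT and 5.67, 6.60 and 3.05 in KO round spermatids. In spermatocytes it lay between 179 and 219 in WT and between 2.92 and 5.80 in KO. It was low in every KO array, with a mean of 3.85 in KO spermatocytes and 5.11 in KO round spermatids. The WT mean was 198 in spermatocytes and 2173 in round spermatids. Its stage difference was -3.27 ± 0.12 (limma without a filter, adjusted p = 1.23e-07). This value mainly follows the rise between stages in WT. KO signals this dim cannot show whether the loss of Dscaml1 signal was more complete at either stage. Wwc1, a Hippo pathway scaffold, lay between 30.2 and 79.7 in WT and between 96.9 and 214 in KO round spermatids, and between 43.6 and 85.1 in WT and between 17.1 and 59.0 in KO spermatocytes, with a stage difference of 2.24 ± 0.52 (adjusted p = 0.00988). Cmya5, a muscle cytoskeletal protein gene, lay between 93.6 and 113 in WT and between 3.46 and 8.51 in KO spermatocytes, while both genotypes were dim in round spermatids. Its stage difference was 2.23 ± 0.29 (adjusted p = 0.000298).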
